A study of Mus musculus with 9 samples.

Results

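The genes described here are 9 members of the S100 family, S100a8, S100a9, S100a11, S100a6, S100a1, S100a13, S100a4, S100a14 and S100a16, among the 54532 Ensembl identifiers of the count table. They were chosen by symbol, and all 9 were in the table. RNA was sequenced from marrow neutrophils of wild type C57/B6 mice cultured for 12 h in a low-serum medium (0.5% fetal bovine serum). In the PyMT-N and PyMT-M groups the neutrophils had shared the culture with cells of that name and were then recovered by fluorescence-activated sorting, and in the alone group they had no tumour cells with them. Each of the 3 groups had 3 libraries. PyMT is the polyoma virus oncoprotein used to give mice mammary tumours. What N and M abbreviate, whether either line is a clone, which marker was sorted on and whether the alone cells were sorted is not stated by the labels, so sorting and co-culture cannot be told apart. The labels call the replicates biological without naming separate animals, so the p-values measure the spread between these libraries, which may be technical.

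S100 proteins are small calcium-binding proteins with a pair of EF-hand motifs, and most work as dimers. S100a8 and S100a9 pair to form calprotectin, which fills much of the neutrophil cytosol, binds zinc and manganese away from microbes and, once released, is a ligand of the Toll-like receptor Tlr4. Other family members are better known from other cells, such as S100a4 from fibroblasts and migrating cells, S100a14 and S100a16 from epithelia and S100a1 from muscle, and several act by binding annexins or myosin.

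All 9 genes lie on mouse chromosome 3 (GRCm38). S100a1, S100a13, S100a14, S100a16, S100a4, S100a6, S100a8 and S100a9 follow each other in that order between 90511034 and 90695721, and S100a11 lies farther along, between 93520488 and 93526287. The promoter windows below come from RefSeq (GRCm38.p6) and run from 250 bases before to 50 bases after an annotated start. Windows were found for 8 of the 9 genes, with 2 starts for S100a16. Those of S100a8 and S100a9 are shown because this pair held most of the family's counts and moved together. S100a8 lies on the plus strand (chr3:90668821-90669120) and S100a9 on the minus strand (chr3:90695672-90695971). Capitals mark the TATA box TATAAA, the C/EBP site TTNNGCAA and the PU.1 core AGGAAGT on either strand.
S100a8: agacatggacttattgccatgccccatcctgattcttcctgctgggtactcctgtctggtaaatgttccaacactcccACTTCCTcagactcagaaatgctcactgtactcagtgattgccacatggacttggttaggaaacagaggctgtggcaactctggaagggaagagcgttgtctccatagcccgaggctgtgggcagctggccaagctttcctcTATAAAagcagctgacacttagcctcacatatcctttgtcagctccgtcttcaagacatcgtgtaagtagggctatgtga
S100a9: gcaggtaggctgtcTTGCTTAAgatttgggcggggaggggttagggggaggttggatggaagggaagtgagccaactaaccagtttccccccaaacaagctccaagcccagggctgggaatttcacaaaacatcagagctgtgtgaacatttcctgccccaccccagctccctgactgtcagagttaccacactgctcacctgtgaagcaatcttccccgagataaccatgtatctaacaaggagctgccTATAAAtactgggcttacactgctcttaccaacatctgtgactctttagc
In S100a8 the TATA box began 30 bases before the annotated start and the PU.1 core 172 bases before it. In S100a9 the TATA box lay at the annotated start itself and the C/EBP site 236 bases before it. Among the members' windows TATAAA was found in S100a8, S100a9 and S100a4, and it is in 13.6% of all 32851 mouse windows. TTNNGCAA was in S100a9 (10.8% of all windows) and AGGAAGT in S100a8 and S100a4 (9.35%). The AP-1 site TGANTCA was in S100a11 and in 1 window of S100a16 (7.81%), the Grainyhead site AACCNGTT in S100a9 (2.09%) and the STAT site TTCNNNGAA in no member (8.30%). Such matches describe letters and not bound factors.

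S100a1 and S100a13 stand head to head, with 42 bases between their first bases in the GENCODE annotation. Their RefSeq windows share 204 bases (chr3:90514281-90514484, plus strand, 59.3% G or C). The RefSeq start of S100a1 lies inside its GENCODE gene, so the RefSeq starts of the 2 genes are more than 42 bases apart. This stretch is shown because the same stretch lies before genes of very different level, and capitals mark the GENCODE gap between them.
S100a1 and S100a13: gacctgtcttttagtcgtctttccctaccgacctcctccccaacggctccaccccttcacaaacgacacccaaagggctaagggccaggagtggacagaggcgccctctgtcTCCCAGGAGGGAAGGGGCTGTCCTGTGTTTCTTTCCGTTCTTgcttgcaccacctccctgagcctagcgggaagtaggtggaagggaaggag

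Library totals lay between 3507969 and 4524563 counts with PyMT-N cells, between 3269332 and 4307585 with PyMT-M cells and between 1641049 and 3180382 alone. Levels are given as normalised CPM, counts scaled to library size after TMM scaling (trimmed mean of M values). All 14 markers of the labelled cell type, the neutrophil, had counts in each group, and their summed level was 12071 CPM (range 10195 to 13803) with PyMT-N cells, 10022 CPM (9364 to 11317) with PyMT-M cells and 21840 CPM (18512 to 25087) alone. Of 24 epithelial markers, 1 was at 0 with PyMT-N cells, 6 with PyMT-M cells and 8 alone, and their sum was 3014 CPM (2599 to 3411), 89.9 CPM (77.2 to 98.8) and 25.3 CPM (18.1 to 32.9) in that order. Of 25 mesenchymal markers, 7, 6 and 7 were at 0 in the same order, and their sum was 2156 CPM (1960 to 2379), 1627 CPM (1584 to 1704) and 266 CPM (247 to 301). Col1a1 averaged 0.853 CPM with PyMT-N cells, 43.8 CPM with PyMT-M cells and 6.15 CPM alone, and Col3a1 averaged 0, 233 and 0.273 CPM. Other markers of the list went the other way, such as Fn1 at 884, 1.22 and 33.3 CPM and Cald1 at 412, 143 and 1.72 CPM, both picked after their values were seen. Of 18 tested mesenchymal markers 7 were higher and 9 lower with PyMT-N than with PyMT-M cells. Each comparison below was also read on a scale set by a list of pan-leukocyte genes, which summed to 13634 CPM with PyMT-N cells, 9397 CPM with PyMT-M cells and 27866 CPM alone. The part of other cells' RNA in the results was not tested.

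With PyMT-N cells, 4 members fell relative to the alone group, S100a8, S100a9, S100a11 and S100a6, and 1, S100a14, was higher. With PyMT-M cells the same 4 fell and 0 rose. Between the co-cultures S100a14 was higher and S100a4 lower with PyMT-N cells. Of the 9 members 8 passed the filter on low counts, S100a14 only through its PyMT-N libraries, and S100a16 did not pass. Over all 12012 genes tested with edgeR's quasi-likelihood test, at a Benjamini-Hochberg adjusted p under 0.05, 29.4% were called higher and 23.6% lower with PyMT-N cells than alone. The shares were 28.1% and 27.9% for PyMT-M cells against alone, and 19.1% and 15.5% for PyMT-N against PyMT-M cells. The median log2 fold change of the 8 tested members was -0.98 with PyMT-N cells against alone, where that of all genes was 0.12, and -0.04 for PyMT-N against PyMT-M cells, where that of all genes was -0.02. For PyMT-M cells against alone it was -0.51 over the same 8 members, where that of all genes was -0.03. It was -0.80 over the 7 members without S100a14, which had 2 counts in PyMT-M co-culture and 0 alone.

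**Figure D1:**
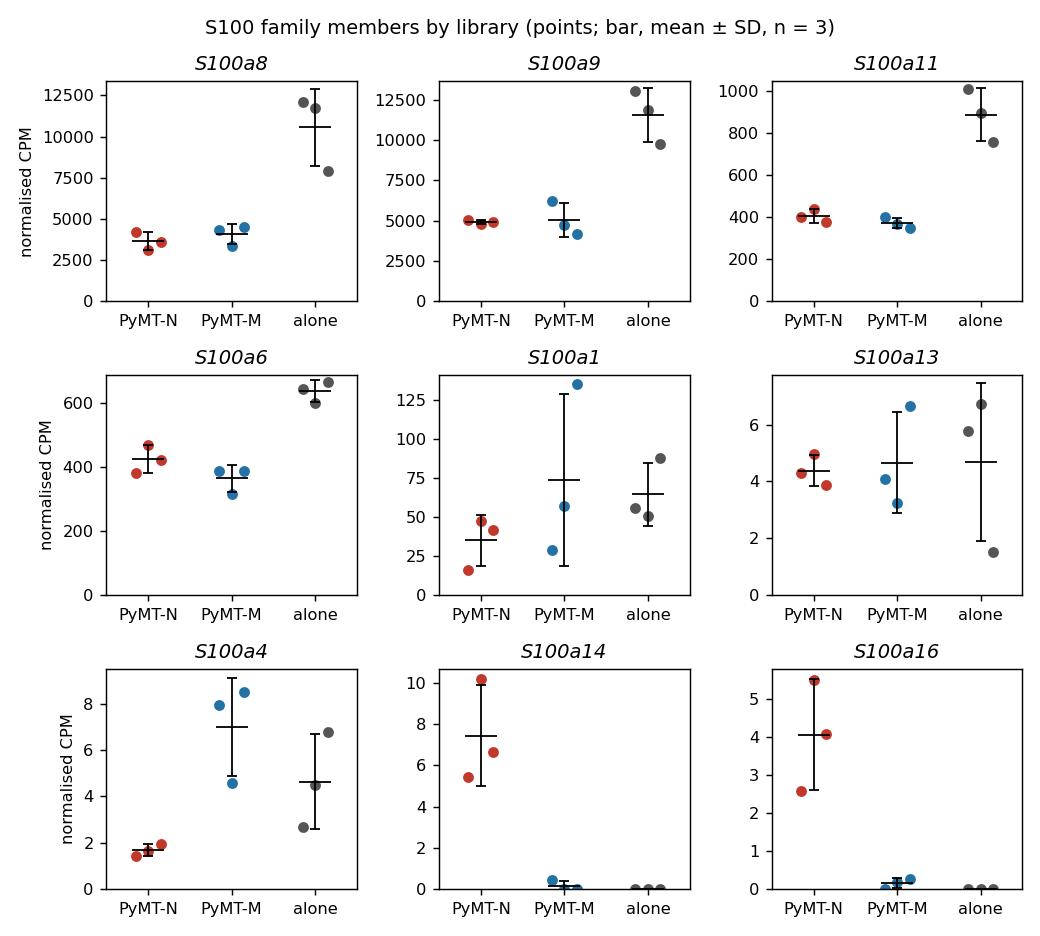
Normalised CPM (vertical axis, linear, a scale per gene) of each of the 9 S100 genes, with PyMT-N, PyMT-M and alone libraries from left to right; points are libraries and black marks the group mean ± SD (n = 3). S100a8 and S100a9 sit between 3143 and 6225 CPM in all 6 co-culture libraries and between 7891 and 13037 CPM in the 3 alone libraries.

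The calprotectin genes S100a8 and S100a9 were among the most abundant transcripts of every group and were lower in both co-cultures. S100a8 had 4237, 3143 and 3585 CPM in the PyMT-N libraries, 4357, 3363 and 4494 CPM in the PyMT-M libraries and 12083, 11712 and 7891 CPM in the alone libraries. All 6 co-culture libraries lay below all 3 alone libraries, while the co-cultures overlapped each other. The log2 fold change was -1.53 ± 0.18 (SE; adjusted p = 5.84e-06 by edgeR) with PyMT-N cells, a level 2.89-fold lower than alone, and -1.38 ± 0.18 (adjusted p = 1.94e-05) with PyMT-M cells, 2.60-fold lower. PyMT-N and PyMT-M co-cultures differed by -0.16 on the log2 scale (95% interval -0.59 to 0.28; adjusted p = 0.540 by edgeR).

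S100a9 had 5064, 4788 and 4933 CPM with PyMT-N cells, 6225, 4728 and 4186 CPM with PyMT-M cells and 13037, 11851 and 9736 CPM alone. Here too the alone libraries stood clear of both co-cultures, and the PyMT-N libraries fell inside the range of the PyMT-M libraries. S100a9 was 2.34-fold lower with PyMT-N cells than alone (log2 fold change -1.23 ± 0.16, adjusted p = 1.46e-05 by edgeR) and 2.29-fold lower with PyMT-M cells (-1.19 ± 0.16, adjusted p = 2.23e-05). The co-cultures differed by -0.03 (95% interval -0.42 to 0.35; adjusted p = 0.888 by edgeR).

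Per kilobase of exon, S100a9 ranked 4th of 12010 genes with PyMT-N cells, 3rd with PyMT-M cells and 3rd alone, and S100a8 ranked 6th, 6th and 5th, so the pair kept its place near the top. Together they took 0.869% ± 0.0461 of all counts with PyMT-N cells, 1.07% ± 0.138 with PyMT-M cells and 1.83% ± 0.357 alone (SD, n = 3 each), and between 89.0% and 93.8% of the counts of the 9 genes in each library. The count ratio of S100a8 to S100a9 was 0.740 ± 0.0909 with PyMT-N cells, 0.828 ± 0.213 with PyMT-M cells and 0.909 ± 0.0903 alone (SD, n = 3 each). The mean log2 of this ratio differed from alone by -0.30 with PyMT-N cells and by -0.16 with PyMT-M cells, and by -0.14 between PyMT-N and PyMT-M cells, and the libraries of all 3 groups overlapped. With 3 against 3 libraries an exact permutation test cannot give a p below 0.1, so it could not have called a difference.

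The fall of the pair went along with lower levels of marker genes of neutrophils and of other marrow cells. Of the 14 neutrophil markers 9 were lower with PyMT-N cells than alone and 11 with PyMT-M cells, and 0 were higher. Of all genes 23.6% and 27.9% were called lower in that order, and 29.4% and 28.1% higher. Between the co-cultures 8 of the markers were higher and 4 lower with PyMT-N cells, against 19.1% and 15.5% of all genes. Csf3r, the G-CSF receptor, had a log2 fold change of -0.79 ± 0.16 with PyMT-N cells (adjusted p = 8.16e-04 by edgeR) and of -1.40 ± 0.16 with PyMT-M cells (adjusted p = 7.07e-06). For the surface antigen gene Ly6g the values were -0.24 ± 0.26 (adjusted p = 0.452, not called, by edgeR) and -1.02 ± 0.27 (adjusted p = 0.00472). On the pan-leukocyte scale Csf3r was at 0.24 and 0.17, not called, and Ly6g at 0.78, called, and 0.53, not called. Other marker lists moved as well. Monocyte and macrophage markers summed to 299 CPM with PyMT-N cells, 216 CPM with PyMT-M cells and 881 CPM alone, and B cell markers to 17.8, 101 and 839 CPM. Eosinophil and basophil markers summed to 20.8, 9.27 and 375 CPM and dendritic cell markers to 67.6, 30.4 and 487 CPM in the same order. All 4 sums were lower with either tumour cell than alone. In bulk RNA, fewer cells of a type and less RNA per cell cannot be told apart. Set against the summed counts of the 14 neutrophil markers, the pair had 0.716 ± 0.0546 counts per marker count with PyMT-N cells, 0.908 ± 0.0385 with PyMT-M cells and 1.01 ± 0.0617 alone (SD, n = 3 each). On that scale the PyMT-N libraries, at 0.674, 0.778 and 0.697, lay below the PyMT-M libraries, at 0.935, 0.864 and 0.925, and below the alone libraries, at 1.00, 1.07 and 0.952, a difference that was not tested. The part of the cell makeup of the libraries in the fall of the pair was not tested either. Per count of the pan-leukocyte genes the order of PyMT-M and alone turned round, with 0.632 ± 0.0319, 0.978 ± 0.123 and 0.795 ± 0.154 for PyMT-N, PyMT-M and alone (SD, n = 3 each).

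The direction of the pair therefore depended on the scale for PyMT-M cells. With libraries scaled to the pan-leukocyte genes in place of TMM, S100a8 kept a lower level with PyMT-N cells than alone (-0.51, adjusted p = 0.0228 by edgeR) and S100a9 was at -0.19, not called. With PyMT-M cells the sign was reversed on this scale, to 0.22 for S100a8, not called, and 0.37 for S100a9 (adjusted p = 0.0414 by edgeR). Between the co-cultures both were then lower with PyMT-N cells, S100a8 by -0.73 and S100a9 by -0.55. This scaling moved the median of all genes by 1.03 for PyMT-N cells and 1.56 for PyMT-M cells, both against alone, and by -0.53 between PyMT-N and PyMT-M cells. In the same order the split of all calls was then 6642 higher and 922 lower, 7866 and 240, and 1326 and 4008, against 3531 and 2830, 3380 and 3352, and 2297 and 1863 under TMM.

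**Figure D2:**
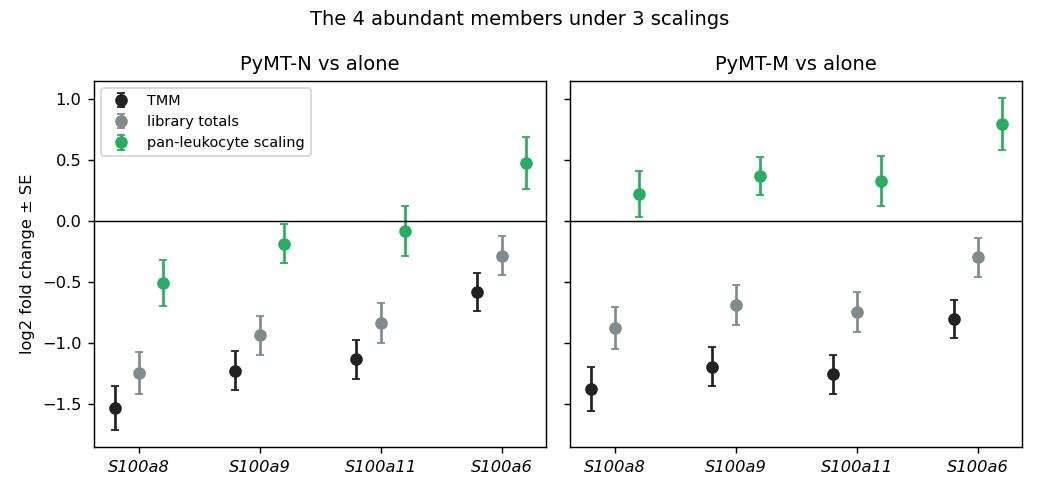
Log2 fold changes (vertical axis; points, fitted values; bars, SE) of S100a8, S100a9, S100a11 and S100a6 against alone under TMM, library totals and pan-leukocyte scaling, PyMT-N cells left and PyMT-M cells right. S100a8 and S100a9 lie below 0 with PyMT-N cells under all 3 scalings and, under pan-leukocyte scaling, above 0 at 0.22 and 0.37 with PyMT-M cells.

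S100a11, a partner of annexin A1 at membranes, also fell with both tumour cells under TMM. It had 403, 439 and 376 CPM in PyMT-N libraries, 399, 370 and 349 CPM in PyMT-M libraries and 1009, 896 and 757 CPM in alone libraries. The co-cultures overlapped and both lay below every alone library. The log2 fold change was -1.13 ± 0.16 with PyMT-N cells (adjusted p = 2.94e-05 by edgeR) and -1.25 ± 0.16 with PyMT-M cells (adjusted p = 1.38e-05), and the co-cultures differed by 0.12 (95% interval -0.26 to 0.51). On the pan-leukocyte scale the values against alone were -0.08 and 0.33, neither called. S100a11 shares 41.1% of its 50-base stretches with processed pseudogenes, which held 6.90% to 8.34% of the summed counts, so how reads were split between them is uncertain.

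S100a6, also called calcyclin, had 381, 468 and 422 CPM with PyMT-N cells, 388, 317 and 388 CPM with PyMT-M cells and 643, 599 and 666 CPM alone. The groups overlapped between the co-cultures and not with the alone group. It fell 1.50-fold with PyMT-N cells (log2 fold change -0.58 ± 0.16, adjusted p = 0.00578 by edgeR) and 1.74-fold with PyMT-M cells (-0.80 ± 0.16, adjusted p = 5.77e-04), and the co-cultures differed by 0.22 (95% interval -0.16 to 0.60). These falls were not called with library totals as the scale, at -0.29 and -0.30, and on the pan-leukocyte scale the signs reversed, to 0.47, not called, with PyMT-N cells and 0.79 (adjusted p = 0.0024 by edgeR) with PyMT-M cells.

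**Figure D3:**
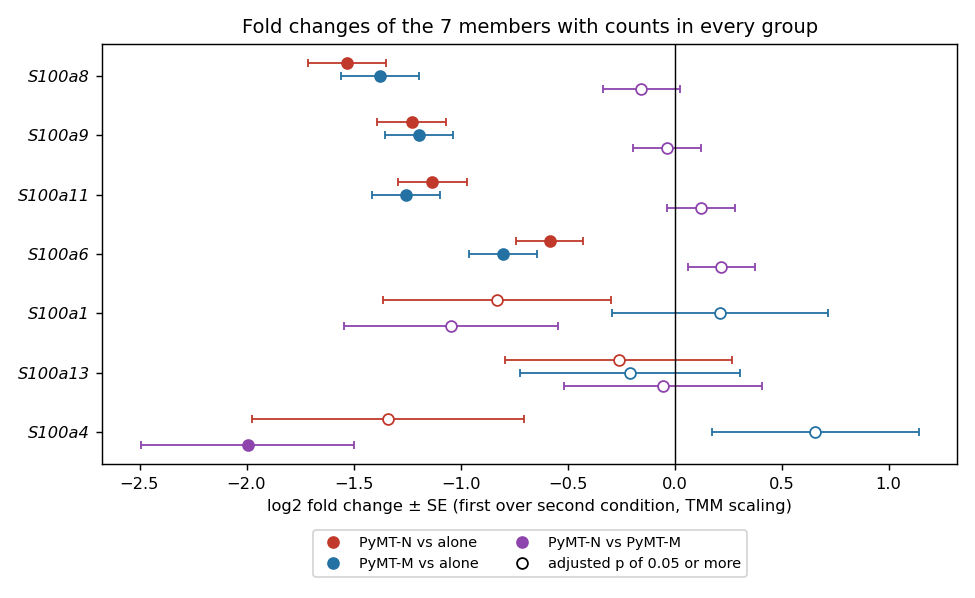
Log2 fold changes ± SE (horizontal axis) of the 7 S100 genes with counts in every group, coloured by comparison, with filled points for called and open points for uncalled differences. S100a8, S100a9, S100a11 and S100a6 are called below 0 against alone with either tumour cell, at -0.58 to -1.53, and S100a4 between the co-cultures, at -2.00.

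S100a1, a regulator of calcium handling in muscle, varied widely between replicates. It had 16.4, 47.1 and 41.5 CPM with PyMT-N cells, 28.8, 57.3 and 135 CPM with PyMT-M cells and 55.7, 50.4 and 87.5 CPM alone. All 3 PyMT-N libraries lay below every alone library, but the differences were not called, at -0.83 ± 0.53 with PyMT-N cells (adjusted p = 0.209 by edgeR), 0.21 ± 0.51 with PyMT-M cells (adjusted p = 0.740) and -1.04 ± 0.50 between PyMT-N and PyMT-M cells (adjusted p = 0.128). Without PyMT-M replicate 3 the second value was -0.52. With no filter S100a1 was called lower with PyMT-N cells than alone (-0.76, adjusted p = 0.0350 by edgeR) and than with PyMT-M cells (-1.06, adjusted p = 0.0013), and without PyMT-M replicate 1 it was also called lower than with PyMT-M cells (-1.44). On the pan-leukocyte scale it was at 0.25, not called, with PyMT-N cells and was called higher with PyMT-M cells (1.89, adjusted p = 0.0334 by edgeR), both against alone. The PyMT-M and alone libraries with most S100a1, replicate 3 of each, also had the largest share of counts in the mitochondrial ribosomal RNA mt-Rnr2 of their group, 11.1% and 12.7%. In PyMT-N co-culture that share was highest in replicate 1, which had least S100a1, and the part of this RNA in the result was not tested.

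S100a13, which takes part in the release of fibroblast growth factor 1, was a low transcript, at 4.31, 4.96 and 3.87 CPM with PyMT-N cells, 4.08, 3.24 and 6.65 CPM with PyMT-M cells and 5.79, 6.73 and 1.51 CPM alone. The groups overlapped, and the lowest library, alone replicate 3, rested on 2 counts. The log2 differences were -0.26 ± 0.53 with PyMT-N cells and -0.21 ± 0.52 with PyMT-M cells, both against alone, and -0.05 ± 0.46 between PyMT-N and PyMT-M cells, none of them called (adjusted p = 0.704, 0.749 and 0.942 by edgeR). On the pan-leukocyte scale its sign against alone turned, to 0.76, not called, with PyMT-N cells and 1.33 (adjusted p = 0.0442 by edgeR) with PyMT-M cells. Per kilobase, its head-to-head neighbour S100a1 had a mean level of 50.4, 106 and 93.0 CPM per kilobase in PyMT-N, PyMT-M and alone libraries. S100a13 had 6.12, 6.52 and 6.54 CPM per kilobase in the same order.

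S100a4, known from fibroblasts and migrating cells and a partner of the myosin Myh9, was the only tested member called lower with PyMT-N than with PyMT-M cells under TMM. It had 1.44, 1.65 and 1.94 CPM in the PyMT-N libraries, 7.95, 4.58 and 8.52 CPM in the PyMT-M libraries and 2.67, 4.48 and 6.79 CPM in the alone libraries. The PyMT-N libraries lay below all others, and PyMT-M and alone overlapped. The difference between PyMT-N and PyMT-M cells was -2.00 ± 0.50 on the log2 scale (adjusted p = 0.00541 by edgeR), a 3.99-fold lower level with PyMT-N cells. Against alone, the values were -1.34 ± 0.64 with PyMT-N cells (adjusted p = 0.0886 by edgeR) and 0.66 ± 0.48 with PyMT-M cells (adjusted p = 0.261), neither called. Scaled to pan-leukocyte genes S100a4 was called higher with PyMT-M cells than alone, at 2.20 (adjusted p = 7.37e-04 by edgeR). All of this rests on few counts, 20 in total over the PyMT-N, 93 over the PyMT-M and 27 over the alone libraries. S100a4 also shares 302 exonic bases with the overlapping gene Gm42674, which had 0 counts in all 9 libraries, and 47.4% of its 50-base stretches occur there. The rule for shared reads is not given, so the true level of S100a4 is uncertain.

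The epithelial members S100a14 and S100a16 were found mainly with PyMT-N cells. S100a14 had 19, 37 and 31 counts in the PyMT-N libraries, 2, 0 and 0 in the PyMT-M libraries and 0 in each alone library. In CPM the PyMT-N values were 5.45, 10.2 and 6.67, where a count of 0 allows up to 2.26 CPM in the shallowest alone library. The level with PyMT-N cells was at least 15.4-fold higher than alone, taking 3 counts over the alone group as its limit. Against PyMT-M cells the ratio was 50.5, with a counting interval of 13.6 to 423. Having passed the filter through the PyMT-N libraries, it had to differ, so its calls are given as a description and no p is printed.

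S100a16 had 9, 20 and 19 counts with PyMT-N cells, 0, 1 and 1 with PyMT-M cells and 0 in each alone library. The PyMT-N libraries were thus clear of the others, at 2.58, 5.51 and 4.09 CPM, at least 8.50-fold higher than alone and 27.9 times the PyMT-M level (counting interval 7.30 to 237). It was too low for the filter. With the filter left out, its adjusted p was 6.97e-04 against alone and 9.76e-05 against PyMT-M cells by edgeR. It passed the filter, through its PyMT-N libraries, in some fits that left out a library. Having passed that way it had to differ, so no p is printed for those fits.

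Beside them stood the epithelial markers, of which Cldn4, Esrp1, Krt14 and Ehf had counts with PyMT-N cells and 0 counts in the other 2 groups. Cldn4, Esrp1 and Krt14 passed the filter through the PyMT-N libraries, so that no count of calls is given for the list. Epcam, an epithelial adhesion gene, averaged 190 CPM with PyMT-N cells, 1.92 CPM with PyMT-M cells and 0 alone, the keratin gene Krt8 378, 43.5 and 0.149 CPM, and Krt18 332, 0.127 and 0.697 CPM. The PyMT-N library with most S100a14 and S100a16, replicate 2, also had the highest epithelial sum, 3411 CPM, and replicate 1, with the least of both, had the lowest, 2599 CPM. Whether these transcripts came from neutrophils or from PyMT-N cells in or on the sorted fraction was not tested.

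**Figure D4:**
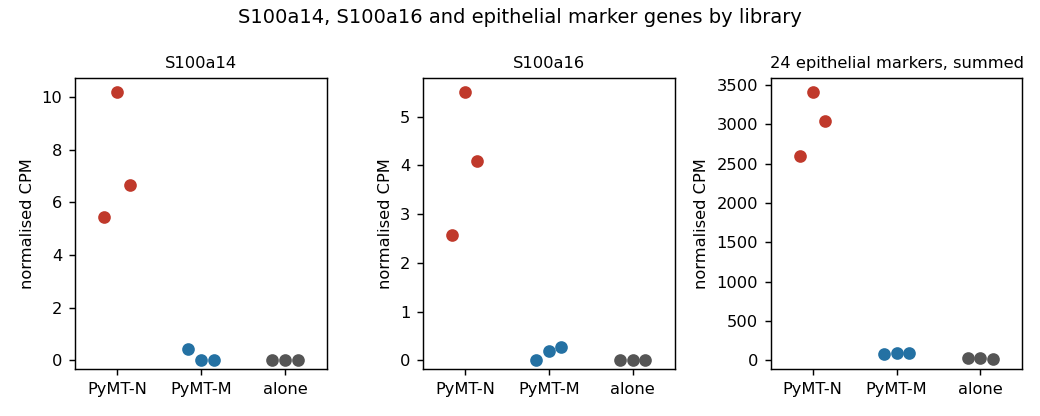
Normalised CPM (vertical axes, linear) of S100a14, of S100a16 and of 24 epithelial markers summed, from left to right; points are the PyMT-N, PyMT-M and alone libraries. S100a14 reaches 5.45 to 10.2 CPM and the epithelial sum 2599 to 3411 CPM in the PyMT-N libraries, above every other library.

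Ordered by level per kilobase, S100a9 and S100a8 came first in every group, then S100a11, S100a6 and S100a1. The means were 9441, 5266, 794, 310 and 50.4 CPM per kilobase with PyMT-N cells. They were 9667, 5866, 729, 267 and 106 CPM per kilobase with PyMT-M cells and 22110, 15219, 1737, 465 and 93.0 CPM per kilobase alone. The next were S100a13, S100a14, S100a4 and S100a16 with PyMT-N cells, at 6.12, 4.31, 2.87 and 2.51 CPM per kilobase. The libraries of neighbours in that order overlapped. The libraries of the first 5 did not overlap between neighbours in any group. With PyMT-M cells and alone S100a4 stood above S100a13, at 12.0 and 7.96 CPM per kilobase.

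**Figure D5:**
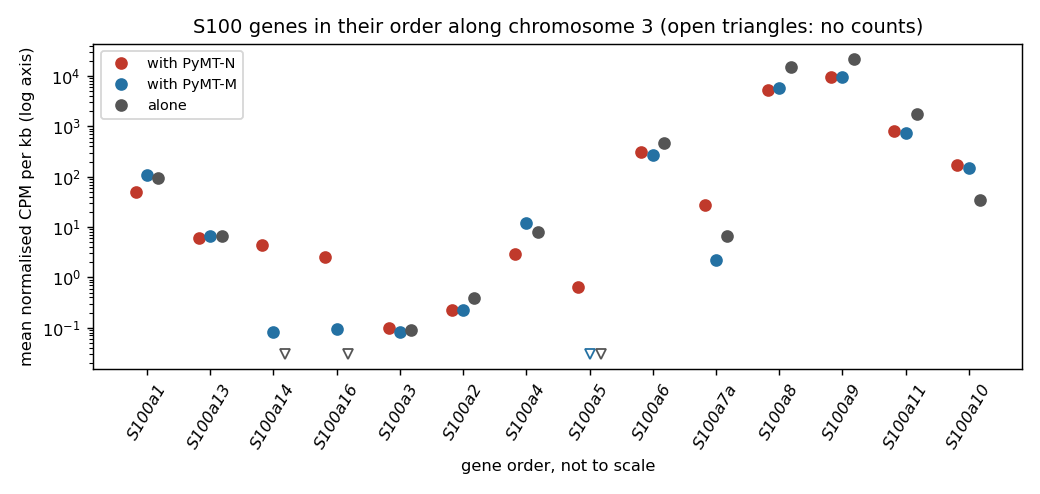
Mean normalised CPM per kilobase (log axis) of 14 S100 genes in their order along chromosome 3, not to scale, with PyMT-N, PyMT-M and alone groups as points from left to right and open triangles where a group had no counts. S100a9 and S100a8 stand highest, at 22110 and 15219 CPM per kilobase alone, and S100a14 and S100a16 have open triangles alone.

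Of 9 other S100 genes looked for, 8 were in the table and 2 passed the filter. S100a10, the light chain that pairs with annexin A2, had 182, 240 and 187 CPM with PyMT-N cells, 169, 181 and 191 CPM with PyMT-M cells and 27.2, 20.2 and 76.9 CPM alone. Opposite to its neighbour S100a11, it rose with both, by 2.42 ± 0.34 on the log2 scale with PyMT-N cells (adjusted p = 3.41e-05 by edgeR) and by 2.25 ± 0.34 with PyMT-M cells (adjusted p = 7.28e-05), and under every scaling tried it was called higher. S100a7a had 36.2, 44.6 and 34.2 CPM with PyMT-N cells, 3.65, 1.15 and 4.26 CPM with PyMT-M cells and 5.79, 5.98 and 15.1 CPM alone. It was higher with PyMT-N cells than alone (2.25 ± 0.40, adjusted p = 2.66e-04 by edgeR) and than with PyMT-M cells (3.71 ± 0.40, adjusted p = 4.81e-06). With PyMT-M cells it was lower than alone under TMM (-1.46 ± 0.57, adjusted p = 0.0401 by edgeR) and at 0.08 on the pan-leukocyte scale. Of its 50-base stretches 6.44% occur in other genes.

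Among 14 genes of S100 receptors and their signalling, 4 rose and 5 fell with PyMT-N cells against alone, 0 rose and 8 fell with PyMT-M cells, and 5 were higher and 1 lower with PyMT-N than with PyMT-M cells. Their median log2 fold changes were -0.57, -0.73 and 0.43, against 0.12, -0.03 and -0.02 for all genes. Of all genes 29.4% were called higher and 23.6% lower with PyMT-N cells, and 28.1% and 27.9% with PyMT-M cells, against alone. Between PyMT-N and PyMT-M cells the shares were 19.1% and 15.5%. Cd14, a co-receptor of Tlr4, had the largest change, at 1554, 1262 and 1675 CPM with PyMT-N cells, 63.6, 64.7 and 53.8 CPM with PyMT-M cells and 58.8, 71.4 and 148 CPM alone, and rose with PyMT-N cells against alone by 4.06 ± 0.28 on the log2 scale (adjusted p = 2.22e-08 by edgeR). Tlr4 itself was 3.24-fold higher with PyMT-N cells (1.70 ± 0.26, adjusted p = 6.51e-05 by edgeR) and lower with PyMT-M cells (-0.99 ± 0.27, adjusted p = 0.00645), where the pan-leukocyte scale gave 0.55, not called. Bsg, a membrane protein reported to bind S100A9 in human cells, rose by 1.65 ± 0.25 with PyMT-N cells. The scavenger receptor Cd36 fell by 3.87 with PyMT-N cells, to a mean of 1.85 CPM, against 25.8 CPM alone. Between the co-cultures Cd14 (4.62), Tlr4 (2.69) and the adhesion gene Alcam (2.07) were higher and Cd36 (-3.29) lower with PyMT-N cells.

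On the pan-leukocyte scale this list had 6 higher and 1 lower with PyMT-N cells and 8 higher and 1 lower with PyMT-M cells, both against alone. Between PyMT-N and PyMT-M cells 5 were higher and 3 lower. The balance of all 12012 genes shifted as well on that scale. In the same order 6642 were higher and 922 lower, 7866 and 240, and 1326 and 4008. The kinase gene Irak1 (-0.94 with PyMT-N cells) and the receptor gene Nptn (-0.78 with PyMT-N and -1.06 with PyMT-M cells) were at 0.09, 0.27 and 0.54 on the pan-leukocyte scale. The adaptor gene Myd88, at -0.80 with PyMT-M cells under TMM, was at 0.78 there, and Alcam kept its fall with PyMT-M cells, at -2.43 under TMM and -0.87 on the pan-leukocyte scale.

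Of 13 genes whose proteins bind S100 proteins, 7 rose and 3 fell with PyMT-N cells, 2 rose and 4 fell with PyMT-M cells, and 6 were higher and 1 lower with PyMT-N than with PyMT-M cells. The medians were 0.72, -0.36 and 0.52, against 0.12, -0.03 and -0.02 for all genes. Of all genes 29.4% were called higher and 23.6% lower, 28.1% and 27.9%, and 19.1% and 15.5% in that order. On the pan-leukocyte scale the list had 10 higher and 1 lower with PyMT-N cells and 9 higher and 0 lower with PyMT-M cells. Between PyMT-N and PyMT-M cells it had 4 higher and 3 lower. All 12012 genes then had 6642 higher and 922 lower, 7866 and 240, and 1326 and 4008 in the same order. Among annexin genes, Anxa8 was at 113, 97.5 and 149 CPM with PyMT-N cells, 0 with PyMT-M cells and 1.78, 0 and 0 CPM alone. Its level was at least 556-fold higher with PyMT-N than with PyMT-M cells. Having passed the filter through its PyMT-N libraries, Anxa8 had to be among the genes called higher there. Anxa3 (2.43 ± 0.22) and Anxa7 (1.11 ± 0.16) also rose with PyMT-N cells against alone. Anxa1, the S100a11 partner, fell like it under TMM, by 1.39 with PyMT-N cells and 1.00 with PyMT-M cells, with -0.36 (not called) and 0.60 (called higher) on the pan-leukocyte scale. Anxa11 fell by 2.61 and 2.06, at -1.60, called, and -0.53, not called, on the pan-leukocyte scale. Myh9, the myosin that S100a4 binds, fell by 0.98 and 1.49, at 0.05 and 0.07 on the pan-leukocyte scale. Cacybp, named for binding calcyclin, was the leading rise with PyMT-M cells, at 111 CPM against 16.7 CPM alone (2.66 ± 0.31, adjusted p = 5.71e-06 by edgeR). The phosphatase gene Ppp5c rose by 1.20 ± 0.33 with PyMT-M cells and by 1.20 with PyMT-N cells.

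Of 8 transcription factor genes tied to S100a8 and S100a9 or to granulocytes, 2 rose and 5 fell with PyMT-N cells, 1 rose and 5 fell with PyMT-M cells, and 3 were higher and 2 lower with PyMT-N than with PyMT-M cells. The medians were -1.67, -1.20 and 0.09, against 0.12, -0.03 and -0.02 for all genes. Of all genes 29.4% were called higher and 23.6% lower, 28.1% and 27.9%, and 19.1% and 15.5% in that order. Scaled to pan-leukocyte genes the counts were 3 higher and 2 lower, 4 higher and 1 lower, and 1 higher and 3 lower. All 12012 genes then had 6642 higher and 922 lower, 7866 and 240, and 1326 and 4008 in the same order. Cebpa, the factor that starts the granulocyte programme, fell under all scalings, to 6.31, 6.06 and 9.25 CPM with PyMT-N cells and 10.7, 13.9 and 18.4 CPM with PyMT-M cells, against 90.0, 105 and 102 CPM alone (-3.75 ± 0.29 and -2.80 ± 0.26). Cebpb, its relative of emergency granulopoiesis, moved the other way with PyMT-N cells, at 86.1, 92.6 and 71.2 CPM, against 14.3, 16.4 and 14.3 CPM alone (2.45 ± 0.26, adjusted p = 2.04e-06 by edgeR). Spi1, which encodes PU.1, fell by 1.26 with PyMT-N cells and 1.91 with PyMT-M cells, and was at -0.24 and -0.36, not called, on the pan-leukocyte scale. The repressor gene Gfi1 fell by 4.20 and 1.97, at -3.19, called, and -0.43, not called, on the pan-leukocyte scale. Hif1a, the hypoxia factor, rose by 1.20 and 0.71. Between PyMT-N and PyMT-M cells Cebpb (2.16), Stat3 (0.44) and Spi1 (0.65) were higher and Cebpd (-2.22) and Cebpa (-0.95) lower, with Stat3 at -0.11 and Spi1 at 0.12, neither called, on the pan-leukocyte scale.

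The genes whose pattern over the 9 libraries was most like that of a member were sought among 6165 genes with a mean log2 CPM of at least 4. The measure was the root mean square (RMS) difference of centred log2 CPM, with 0.5 CPM added before the log. For S100a8 they were Ugp2 (0.101), H2-D1 (0.117) and Rgs2 (0.123), and for S100a9 Jak1 (0.0926), Zfp516 (0.112) and Evi2a (0.117). S100a11 was nearest to Celf2 (0.0880), Maea (0.108) and Prr13 (0.109), and S100a6 to Akr1a1 (0.125), Idh1 (0.126) and Actr3 (0.126). The low members had looser neighbours, Idh3g (0.269) for S100a4, Zfp36l1 (0.316) for S100a14, Iah1 (0.197) for S100a13 and H2afv (0.459) for S100a1. S100a14 had 0 counts in every alone library, so its pattern there was set by the added 0.5 CPM. S100a16 was not included.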

How the data were processed

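The authors deposited whole-number read counts by Ensembl identifier, with no normalisation. The submitters' processing notes name the aligner STAR and the builds GRCm38 and mm10. Per the labels' protocols, 150 pg of RNA entered each library (QIAseq FX Single Cell RNA kit). No source used here gives the counting tool, strand setting or annotation. Symbols came from GENCODE M21 (54409 of 54532 identifiers). Members and lists were chosen with earlier results of these data known.

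Low genes were dropped by filterByExpr (edgeR 4.0.16; minimum 10 counts, total 15) and the rest scaled by TMM and fitted in a single model over 9 libraries in R 4.3.3. The quasi-likelihood test was adjusted over 12012 genes (Benjamini-Hochberg), with calls below 0.05, and SE was taken as the log2 fold change over the root of F. Count-of-0 limits took 3 counts. Named were all members, in each pathway list up to 3 called genes of smallest p per direction and comparison, the 3 genes of nearest pattern per member (1 for low members) and fixed cell markers; Csf3r and Ly6g stand for neutrophils. The code was tested on simulated data. Library totals of 1641049 to 4524563 counts limit precision at low levels. Intervals of count ratios and the limits at 0 counts cover counting error only, and those of log2 fold changes come from the edgeR fit. Other scalings, filters, DESeq2 1.42.0, a replicate block and leaving out each library were tried.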

Additional observations from a re-analysis of the deposited data

Results flagged for a closer look

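S100a4 and S100a14 were called different in level by the test between the co-cultures. For S100a14 that call was set by the filter and is given as a description only. S100a4 was lower with PyMT-N than with PyMT-M cells, by -2.00 on the log2 scale (adjusted p = 0.00541 by edgeR), with 20 counts in total over the PyMT-N libraries and 93 over the PyMT-M libraries. S100a14 was higher with PyMT-N than with PyMT-M cells, with a fitted value of 5.35 on the log2 scale. That value rests on 2 counts in PyMT-M co-culture, and the gene passed the filter through its PyMT-N libraries, so the count ratio of 50.5 with its interval of 13.6 to 423 describes it better.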

How the results depend on the processing

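The falls of S100a8, S100a9, S100a11 and S100a6 against alone kept their direction and call with relative log expression, with DESeq2, with no filter and with each library left out; the exceptions were library totals and pan-leukocyte scaling. Library totals put S100a6 at -0.29 and -0.30, neither called, and reversed S100a11 between co-cultures (-0.090) and S100a13 (0.025 with PyMT-N cells and 0.29 with PyMT-M cells, against alone). Pan-leukocyte scaling gave 1 member lower in PyMT-N against alone, 5 higher and 0 lower in PyMT-M against alone, and 3 lower in PyMT-N against PyMT-M. Over all 12012 genes the same scaling gave 6642 higher and 922 lower, 7866 and 240, and 1326 and 4008 in that order. This scaling reversed S100a1 (0.25), S100a13 (0.76) and S100a6 (0.47) in PyMT-N against alone. In PyMT-M against alone it reversed S100a8 (0.22), S100a9 (0.37), S100a11 (0.33), S100a6 (0.79) and S100a13 (1.33). Between the co-cultures it reversed S100a11 (-0.41) and S100a6 (-0.32). The cause was not tested.

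A filter of 50 counts in 3 libraries left 5 members. It gave 0 higher in PyMT-N against alone, and 0 higher and 0 lower in PyMT-N against PyMT-M, since S100a14 and S100a4 were themselves dropped. Of the 8398 genes then tested, 2678 were higher in PyMT-N against alone, and 1714 higher and 1432 lower in PyMT-N against PyMT-M. With no filter S100a16 entered, giving 2 higher in PyMT-N against alone and 2 higher in PyMT-N against PyMT-M, where S100a1 was also called, giving 2 lower. Of the 23525 genes then tested, 3922 were higher in PyMT-N against alone, and 2678 higher and 2133 lower in PyMT-N against PyMT-M. Leaving out a library in turn gave 1 to 2 higher and 4 lower in PyMT-N against alone, 0 higher and 4 lower in PyMT-M against alone, and 1 to 2 higher and 1 to 2 lower in PyMT-N against PyMT-M. The second higher member was S100a16, where it passed the filter through its PyMT-N libraries. Of all genes, 12492 to 12575 in these fits, 3140 to 3907 were higher and 2425 to 3275 lower in PyMT-N against alone. In PyMT-M against alone 2964 to 3648 were higher and 2894 to 3857 lower, and between the co-cultures 1922 to 3009 and 1316 to 2621. Leaving out a library reversed only values that were not called. S100a1 in PyMT-M against alone ranged from -0.52 (without PyMT-M replicate 3) to 0.61. S100a13 ranged from -0.50 to 0.12 in PyMT-M against alone, above 0 without alone replicate 2 and, at 0.030, without PyMT-M replicate 2 or with DESeq2. It ranged from -0.53 to 0.065 (without alone replicate 2) in PyMT-N against alone, and from -0.28 to 0.25 (without PyMT-M replicate 3; 0.041 without PyMT-N replicate 3) between the co-cultures. S100a9 between the co-cultures ranged from -0.16 to 0.14 (without PyMT-M replicate 1). The log2 ratio of S100a8 to S100a9 ranged from -0.39 to -0.22 for PyMT-N and from -0.36 to -0.05 for PyMT-M, both against alone, and from -0.25 to 0.061 (without PyMT-M replicate 3) between the co-cultures. Without PyMT-M replicate 1, S100a1 was called lower in PyMT-N against PyMT-M (-1.44).

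Library names carry the same number in each group, but the labels do not say that it marks an animal. Of 9 same-numbered pairs 0 correlated over 0.1. With 3 libraries per group this cannot show whether same-numbered samples share an animal, and the number was not used to pair them in the main fit. A replicate block gave 2 members lower in PyMT-N against PyMT-M, S100a4 and S100a1 (-0.95), and called S100a1 lower in PyMT-N against alone (-0.95); 1 of 9 libraries correlated best with its own number. Depth limits S100a4, S100a13, S100a14 and S100a16, which had 0 to 37 counts in a library.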
